A study of Mus musculus with 2 samples.

Results

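Transforming growth factor beta (TGF-beta) is made as a latent ligand, and the genes described here encode that ligand and the proteins that activate it, receive it and carry or restrain its signal. They are 10 genes of the 24785 listed in either library, chosen by name: the ligand Tgfb1, the activating integrin subunits Itgav and Itgb8, the receptors Tgfbr1 and Tgfbr2, the signal carriers Smad2 and Smad3, and the inhibitors Smad7, Ski and Skil. Their levels were followed over the immune cells of the mouse lung, with and without bleomycin (BLM) injury, and in the T cells that carried Foxp3 RNA, the transcription factor that defines regulatory T cells (Tregs). All 10 genes were detected in both libraries, and the values below dwell on the 9 other than the ligand. On GRCm38 (GENCODE vM21) 6 of these protein-coding genes lie on chromosome 7 from 25687002 to 25705077 (Tgfb1), chromosome 4 from 47353222 to 47414931 (Tgfbr1) and from 155154075 to 155222592 (Ski), chromosome 12 from 119158022 to 119238802 (Itgb8), chromosome 9 from 63646767 to 63757994 (Smad3) and chromosome 3 from 31095058 to 31122577 (Skil). Itgav and Tgfbr2 are placed beside their promoters, and no position is given for Smad2 and Smad7.

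Latent TGF-beta is held in an inactive complex, and integrins that pair the alpha v chain (Itgav) with a beta chain such as beta 8 (Itgb8) free it at cell surfaces. The freed ligand binds TGFBR2, which recruits and activates TGFBR1, and the receptor complex then phosphorylates SMAD2 and SMAD3, which enter the nucleus and regulate genes. SMAD7 blocks the receptors, SKI and SKIL (also called SnoN) hold SMAD complexes in a repressive state, and the pathway is known both for driving scarring of the lung and for shaping Tregs and tissue macrophages.

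The study sorted living CD45+ cells, that is leukocytes, from lungs of wild-type C57BL/6N adult mice and profiled them as single cells on the BD Rhapsody system, which tags each captured transcript with a unique molecular identifier (UMI). The BLM library held lung cells of day 15 after intratracheal bleomycin, which injures the tissue and causes it to scar, and the naive library from untreated mice. Each library was 1 pool of 3 mice with no map from cell to mouse, so treatment, mice and library cannot be told apart, and no test between conditions was possible. The sort on CD45 removes most stromal and epithelial cells, which are known sources and targets of TGF-beta in the lung, so the values are mainly those of leukocytes. A cluster led by Sparc and Gsn and a few stromal-like cells, described apart below, carried stromal markers.

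After filtering, 4391 BLM cells (21178260 UMIs, median 2380 per cell) and 3808 naive cells (16874692 UMIs, median 2699.5) were kept, and 22 cell indices were shared by both libraries. Clustering gave 19 clusters. Each was called by a cell class from the markers of that class, and every class name below means cells like that class. Levels are counts per 1000000 UMIs of the same cells (CPM). Ratios are log2 of the CPM of the first group named over that of the second, followed by a 95% interval. All intervals cover counting error only, because cells are not replicates and the UMIs of 1 cell are not independent. In 11 classes each library had at least 50 cells. Of the 10 genes that lead a class, 6 were more than 2-fold apart between the libraries in alveolar macrophages and 7 in C1q macrophages, so the cells matched across libraries in these classes differed widely in their own defining genes. The share of all genes that differed is given beside each count.

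Over all kept cells, Itgav was the member with the largest shift between libraries, with 1297 UMIs in BLM cells and 684 in naive cells (61.2 and 40.5 CPM). Tgfbr2 was at 195 CPM in BLM and 243 CPM in naive cells, and Tgfbr1 at 120 and 109 CPM. Among the inhibitors, Skil was at 227 and 203 CPM, Ski at 109 and 126 CPM, and Smad7 at 65.8 and 67.5 CPM. Smad2 held 626 and 537 UMIs, Smad3 421 and 393, and Itgb8 only 37 in each library. These sums mix classes of unequal size, and the levels by class are what follow.

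**Figure D1:**
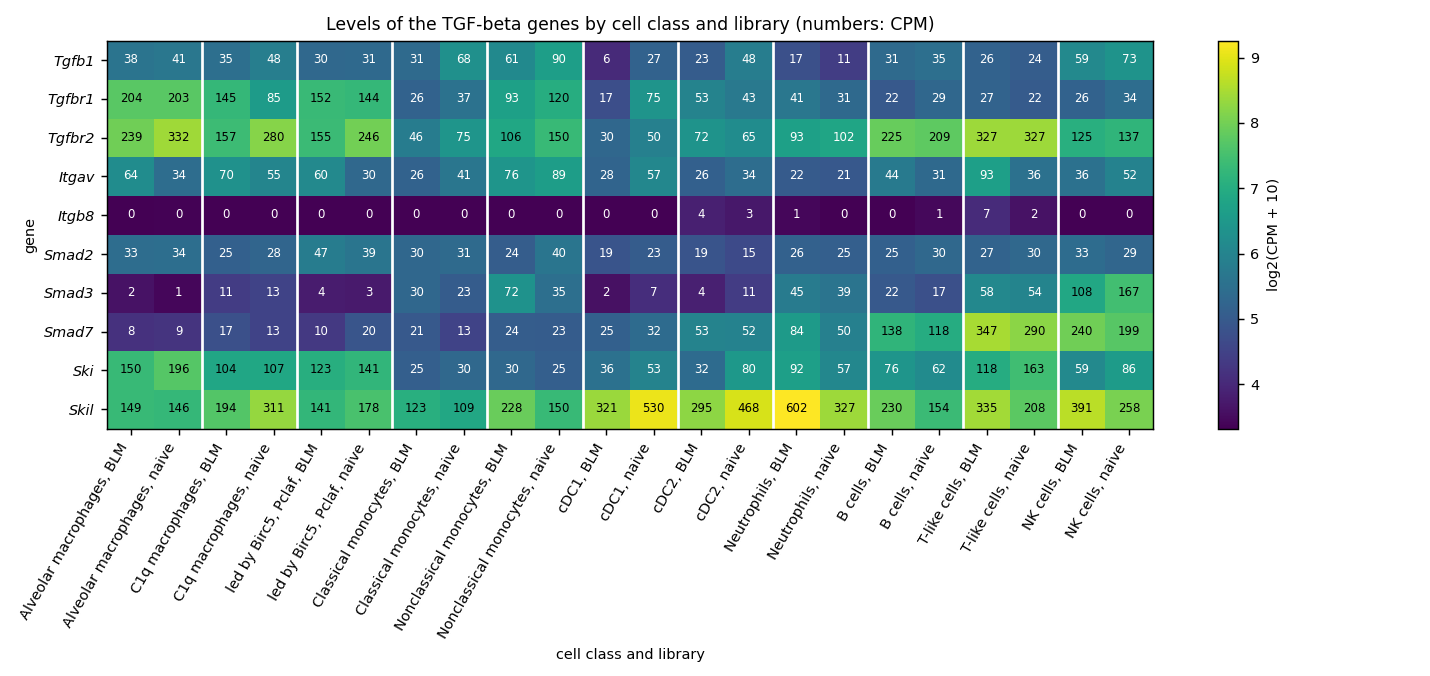
Level of each of the 10 genes in CPM by cell class in the BLM library and the naive library. Tgfbr1 is highest in alveolar macrophages (204 CPM in BLM and 203 in naive cells), Smad7 in T-like cells (347 and 290 CPM) and Smad3 close to 0 in alveolar macrophages (2.29 and 0.821 CPM).

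Itgav encodes the alpha v chain shared by the integrins that activate TGF-beta, and its highest levels lay in the T cells that carried Foxp3 RNA after BLM. T-like cells with at least 1 Foxp3 UMI numbered 76 of 802 (9.48%) in the BLM library and 22 of 672 (3.27%) in the naive library. The background of this gate was low: 2 of 636 BLM B cells (0.314%) and 0 of 821 naive B cells had a Foxp3 UMI, which allows a share of up to 0.365%. Their median depth was 2807 UMIs in BLM and 2713 in naive cells, against 2399 and 2509.5 for all T-like cells. A Foxp3-positive cell is one in which that RNA was captured, so some Tregs are among the other cells.

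In the BLM library Itgav reached 493 CPM (115 UMIs) in Foxp3-positive T-like cells against 42.1 CPM (78 UMIs) in the other T-like cells, a log2 ratio of 3.55 (3.12 to 3.98). In the naive library the levels were 118 CPM (8 UMIs) and 33.2 CPM (57 UMIs), a log2 ratio of 1.83 (0.55 to 2.90). Foxp3-positive cells were thus the higher side in both libraries. Between the libraries, Foxp3-positive BLM cells stood above Foxp3-positive naive cells by 2.07 (1.04 to 3.31), whereas the cells without Foxp3 stood at 42.1 and 33.2 CPM, a log2 ratio of 0.34 (−0.17 to 0.86).

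The Itgav reads were spread over many cells. An Itgav UMI was present in 45 of the 76 Foxp3-positive BLM cells (59.2%), with 19 cells at 1 UMI, 8 at 2, 8 at 3 and a highest cell of 9. In the naive library 8 of 22 Foxp3-positive cells (36.4%) had a single Itgav UMI each. Among T-like cells without Foxp3 the shares were 8.82% (64 of 726) in BLM and 7.85% (51 of 650) in naive cells. Other lymphocytes were near these, with 50 of 636 BLM and 54 of 821 naive B cells, and 10 of 141 and 28 of 260 NK cells. Neutrophils, with 2.70% and 3.09%, had the lowest Itgav level of the classes with at least 50 cells in each library. They were also shallow, at a median of 1329 and 1580 UMIs. With each cell thinned to 1000 UMIs the shares were 33.3% and 3.86% of Foxp3-positive and other BLM cells, and 11.4% and 3.24% in the naive library. Foxp3-positive BLM cells with an Itgav UMI had a median depth of 2880 UMIs, those without 2526.

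The T-like cells carried all 8 T cell markers, at 4550 CPM summed in BLM and 4634 CPM in naive cells. Sub-clustering them gave 8 groups, and the distribution of Itgav over them differed from that of the cells. The Treg-like sub-cluster, with 8 of 8 Treg markers detected (7065 and 4763 CPM summed), held 9.10% of BLM T-like cells (73 cells) but 61.7% of their Itgav UMIs, and 3.57% of naive T-like cells (24 cells) with 13.8% of their Itgav UMIs. Its level was 500 CPM in BLM and 117 CPM in naive cells, and 7 of its 10 leading genes differed by over 2-fold between the libraries. The activated CD4 sub-cluster came next in BLM, at 115 CPM (46 UMIs in 173 cells) against 42.3 CPM (5 UMIs in 49 cells) in naive cells. Gamma delta T cells stood at 44.4 and 45.0 CPM and the cytotoxic sub-cluster at 41.3 and 35.9 CPM. CD8 T cells lay the other way, at 8.39 CPM in BLM and 41.1 CPM in naive cells, on 4 and 9 UMIs.

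The gate and the sub-cluster were not the same cells. In the BLM library 59 Foxp3-positive cells lay in the Treg-like sub-cluster and held Itgav at 557 CPM (107 UMIs), while the 17 elsewhere held it at 195 CPM (8 UMIs). The 14 cells of that sub-cluster without a Foxp3 UMI stood at 262 CPM (12 UMIs), and all remaining T-like cells at 36.5 CPM (66 UMIs). All 3 groups with a Treg feature were above the remaining cells. Set only against Foxp3-negative cells of the activated CD4 sub-cluster, Foxp3-positive BLM cells were higher in Itgav by 2.22 (1.69 to 2.79), at 493 against 106 CPM.

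**Figure D2:**
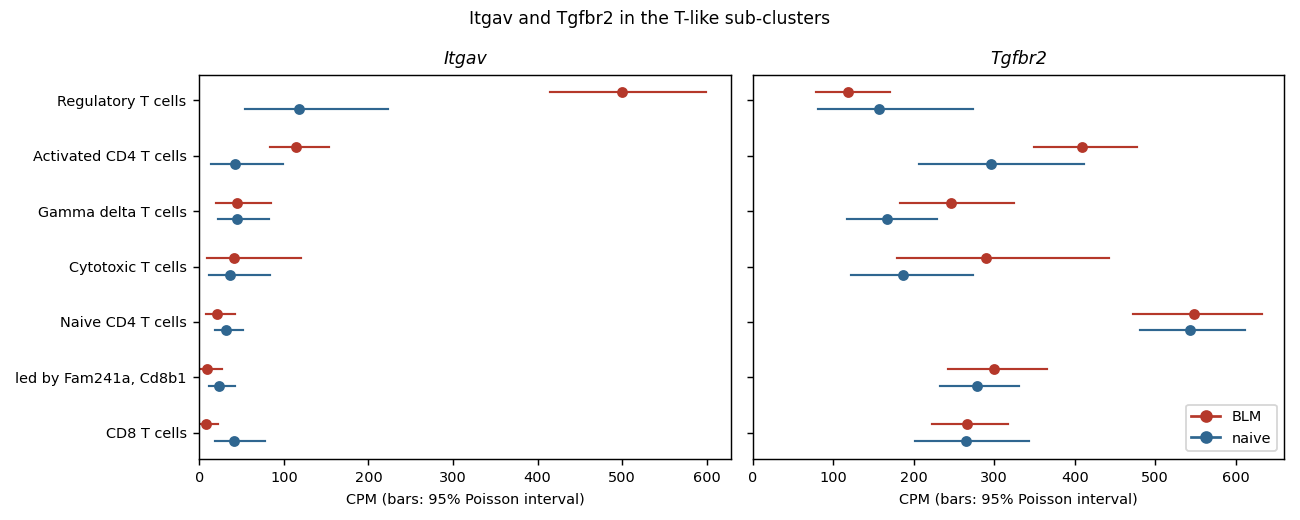
Itgav and Tgfbr2 levels in CPM in the sub-clusters of T-like cells, by library, with 95% Poisson intervals of counting error. The Treg-like sub-cluster of the BLM library is highest for Itgav (500 CPM) and low for Tgfbr2 (118 CPM), while naive CD4 T cells are at 548 and 543 CPM of Tgfbr2.

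Tgfbr2, the receptor that binds the ligand first, ran the opposite way in Foxp3-positive cells. It was at 120 CPM (28 UMIs) in Foxp3-positive BLM cells against 353 CPM (655 UMIs) in the other T-like cells, a log2 ratio of −1.56 (−2.16 to −1.01). The naive values were 88.2 CPM (6 UMIs) and 337 CPM (579 UMIs), a log2 ratio of −1.93 (−3.39 to −0.80). Foxp3-positive cells were the lower side in both libraries, and between libraries they stood at 120 and 88.2 CPM with an interval that included 0 (0.45, −0.85 to 2.01). Against Foxp3-negative activated CD4 cells of the BLM library the difference was −1.85 (−2.49 to −1.26).

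The promoters of Itgav and Tgfbr2 are shown because these genes stood past 2-fold in opposite directions in Foxp3-positive BLM cells. They are the 250 bases before the transcription start in RefSeq (GRCm38.p6), 5′ to 3′ on the gene's strand, which held promoters of 7 of the 10 members. Capitals mark CAGAC, the short SMAD-binding letters, which were searched on both strands together with the forkhead letters TGTTTAC.
Itgav, chr2:83724147-83724396, plus strand: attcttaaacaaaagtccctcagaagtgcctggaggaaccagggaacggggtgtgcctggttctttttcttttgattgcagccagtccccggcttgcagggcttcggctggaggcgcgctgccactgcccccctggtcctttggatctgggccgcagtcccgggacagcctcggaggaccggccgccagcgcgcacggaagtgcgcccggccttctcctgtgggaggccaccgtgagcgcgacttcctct
Tgfbr2, chr9:116175364-116175613, minus strand: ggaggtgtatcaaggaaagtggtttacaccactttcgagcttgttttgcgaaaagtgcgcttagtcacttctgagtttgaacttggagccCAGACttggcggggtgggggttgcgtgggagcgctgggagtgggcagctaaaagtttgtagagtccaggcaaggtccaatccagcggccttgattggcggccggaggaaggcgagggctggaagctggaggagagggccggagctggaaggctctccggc
CAGAC occurred once in the Tgfbr2 window, 160 bases before the start, and in 13716 of 32536 promoters of this length (42.2%). Neither set of letters was in the Itgav window, and TGTTTAC was in 1032 promoters (3.17%). No exon of the annotation overlapped either window. Itgav lies on chromosome 2 from 83724397 to 83806916 and Tgfbr2 on chromosome 9 from 116084293 to 116175360 (GENCODE, GRCm38).

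Itgb8, the beta 8 chain that pairs with alpha v, was sparse, so its values rest on single UMIs. Foxp3-positive BLM cells held 7 UMIs (30.02 CPM) and the other T-like cells 7 UMIs (3.78 CPM), a log2 ratio of 2.99 (1.25 to 4.73). The naive counts were 3 UMIs (44.1 CPM) and 1 UMI (0.582 CPM), a log2 ratio of 6.24 (2.61 to 11.96). Foxp3-positive cells were higher in both libraries. Of the 7 UMIs in Foxp3-negative BLM cells, 5 lay in the Treg-like sub-cluster. That sub-cluster held 12 of the 14 Itgb8 UMIs of BLM T-like cells and 3 of the 4 of naive T-like cells.

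Itgav and Itgb8 UMIs were found together in 4 Foxp3-positive BLM cells, Itgb8 alone in 3 and Itgav alone in 41. Of the naive cells, 1 Foxp3-positive cell had both, 2 had Itgb8 alone and 7 Itgav alone. Foxp3-negative activated CD4 cells of the BLM library held 0 Itgb8 UMIs, and a floor of 3 counts puts them at up to 8.12 CPM. The level of the Foxp3-positive cells was 3.70-fold that floor. This value leaves out the counting error of their 7 UMIs (12.1 to 61.9 CPM). Against other cells with a Cd4 UMI, which held 6 UMIs, the log2 ratio was 0.88 with an interval that included 0 (−0.91 to 2.73).

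Among the other genes of the list, the inhibitors split in Foxp3-positive BLM cells. Smad7, the receptor blocker, was lower, at 184 CPM (43 UMIs) against 367 CPM (681 UMIs), a log2 ratio of −0.99 (−1.47 to −0.55). Skil, the SMAD co-repressor, was higher, at 536 CPM (125 UMIs) against 309 CPM (573 UMIs), a log2 ratio of 0.79 (0.50 to 1.08), but by 0.33 (−0.02 to 0.67) against Foxp3-negative activated CD4 cells alone. Ski, its relative, was at 94.4 and 121 CPM with an interval that included 0 (−1.07 to 0.27). In naive cells Skil was again the higher in Foxp3-positive cells (397 against 200 CPM, 0.99, 0.37 to 1.55), and the Smad7 interval included 0 (235 against 293 CPM, −1.13 to 0.40).

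For the signal carriers and Tgfbr1 the intervals included 0 in the BLM library. Smad3 was at 77.2 CPM (18 UMIs) in them and 56.1 CPM (104 UMIs) in the other BLM T-like cells, with an interval from −0.35 to 1.19, while against other cells with a Cd4 UMI (35.3 CPM, 13 UMIs) the log2 ratio was 1.13 (0.02 to 2.28). Smad2 was at 30.02 CPM (7 UMIs) and 26.4 CPM (49 UMIs). Tgfbr1, the second receptor, was at 38.6 CPM (9 UMIs) and 25.4 CPM (47 UMIs), with an interval from −0.61 to 1.65. In the naive library Tgfbr1 was at 73.5 CPM (5 UMIs) and 20.4 CPM (35 UMIs), a log2 ratio of 1.85 (0.14 to 3.21), and Smad2 had 0 UMIs in Foxp3-positive cells, whose floor of 44.1 CPM is above the 31.4 CPM of the other cells.

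The counts of members past 2-fold can be read beside those of all genes. Of the 9 members with 20 or more UMIs over both sides in the BLM library, 1 was past 2-fold higher (Itgav), where 9.93% of all genes were, and 1 lower (Tgfbr2), where 14.6% of all genes were. In the naive library 2 were higher (Itgav and Tgfbr1), where 12.4% of all genes were, and 2 lower (Tgfbr2 and Smad2), where 21.6% were. Smad2 entered at its count of 0, although the floor of those cells lies above the level of the other cells. Any gene with a count of 0 on that side was counted in the same way. Itgb8 was under the minimum of UMIs and was not counted. Between libraries, Ski was the further member of Foxp3-positive cells whose interval left out 0, at 94.4 CPM in BLM and 235 CPM in naive cells (−1.32, −2.31 to −0.29).

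Markers of other cell types were present in these cells at levels that differed between the sides. In the BLM library 5 of 6 lists summed higher in Foxp3-positive cells than in the other T-like cells: alveolar macrophage (365 and 294 CPM), C1q macrophage (184 and 153 CPM), stromal (133 and 112 CPM), neutrophil (356 and 171 CPM) and B cell markers (85.8 and 23.7 CPM). The cDC2 markers lay the other way (81.5 and 226 CPM). Of 12 alveolar markers 8 were detected, with Ear1, Marco, Krt79 and Fabp1 at 0, and among the others Pf4, Cxcr2, Fcmr, Cd209a, Clec10a and Cd209d were at 0, as were 8 of 13 stromal markers. In naive cells the stromal (265 and 131 CPM) and neutrophil lists (221 and 172 CPM) were higher in Foxp3-positive cells, and the alveolar (500 and 612 CPM), C1q (58.8 and 82.0 CPM), B cell (88.2 and 103 CPM) and cDC2 lists (103 and 250 CPM) lower. Their part in the results on Foxp3-positive cells was not tested.

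**Figure D3:**
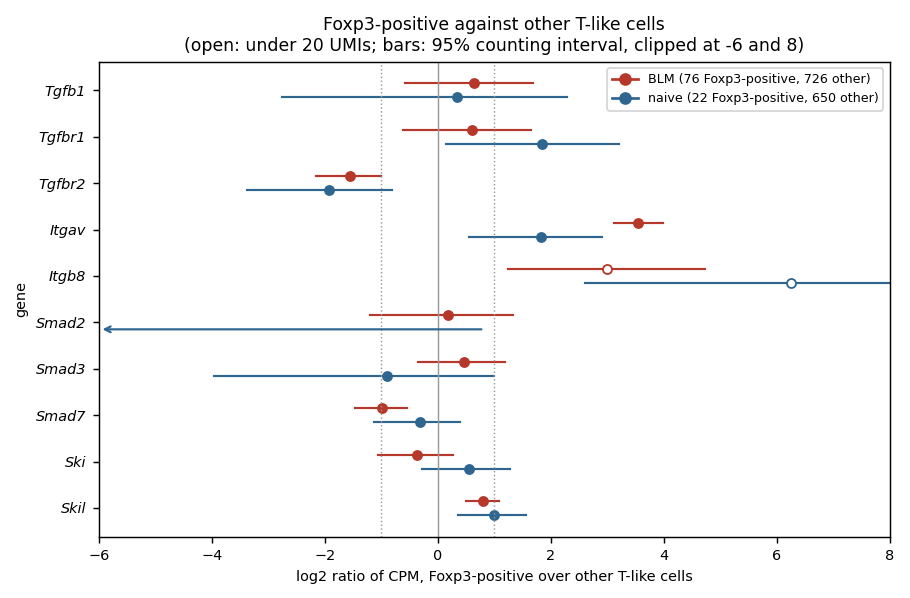
The 10 genes compared between T-like cells with and without a Foxp3 UMI in each library, with 95% intervals of counting error. Itgav is higher in Foxp3-positive cells (493 against 42.1 CPM in BLM, 118 against 33.2 CPM in naive cells) and Tgfbr2 lower (120 against 353 CPM and 88.2 against 337 CPM).

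Outside the T cells, Itgav was higher after BLM in alveolar macrophages, the resident phagocytes of the airspace. They held 417 UMIs in BLM and 206 in naive cells (63.7 and 33.8 CPM), a log2 ratio of 0.91 (0.67 to 1.16). A cycling cluster led by Birc5 and Pclaf stood at 59.7 and 29.98 CPM (0.99, 0.36 to 1.68). C1q macrophages, at 70.1 and 55.5 CPM, had an interval that included 0 (−0.15 to 0.86). The 3 groups pooled gave 0.89. The direction in alveolar macrophages was kept when cells were gated one by one (0.66) or thinned (0.43), but both values lay below the interval given above. Without integration the alveolar class had no BLM cells and hence no ratio. C1q macrophage markers in the alveolar cells summed to 2124 CPM in BLM and 583 CPM in naive cells, and in the Birc5-led cells to 2953 and 662 CPM, with all 11 detected in each. Alveolar markers summed to 16330 and 22132 CPM in the alveolar cells, with all 12 detected. The part of these shifts in the results on alveolar and Birc5-led cells was not tested.

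In the T-like cells as a whole Itgav was at 92.5 CPM in BLM (193 UMIs) and 36.4 CPM in naive cells (65 UMIs), a log2 ratio of 1.35 (0.93 to 1.78), most of it in the Treg-like and activated CD4 sub-clusters described above. The cDC1, the dendritic cells that cross-present antigen, lay the other way on few reads, at 27.6 CPM (13 UMIs in 55 cells) and 57.0 CPM (32 UMIs in 82 cells), a log2 ratio of −1.04 (−2.10 to −0.07). Nonclassical monocytes were at 75.9 and 88.7 CPM and neutrophils at 22.4 and 20.9 CPM. In group 2 innate lymphoid cells (ILC2) the levels were 161 CPM (21 UMIs in 37 cells) and 90.5 CPM (24 UMIs in 115 cells), with an interval that included 0 (−0.08 to 1.74).

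Most Itgb8 UMIs outside the T cells lay in a pair of clusters. Migratory dendritic cells held 4 UMIs in 69 BLM cells (9.08 CPM) and 24 UMIs in 15 naive cells (245 CPM), a log2 ratio of −4.75 (−6.74 to −3.21). The naive value rested on 5 cells, with 14, 7, 1, 1 and 1 UMIs, so its counting interval, which takes UMIs as independent, is too narrow. An unnamed cluster led by Sparc and Gsn held 14 UMIs in BLM and 3 in naive cells (46.0 and 23.5 CPM). The remaining classes held at most 2 UMIs per library: cDC2 2 and 2, alveolar macrophages 1 and 1, and B cells 0 and 2, where a floor of 3 counts puts the BLM B cells at up to 2.25 CPM.

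**Figure D4:**
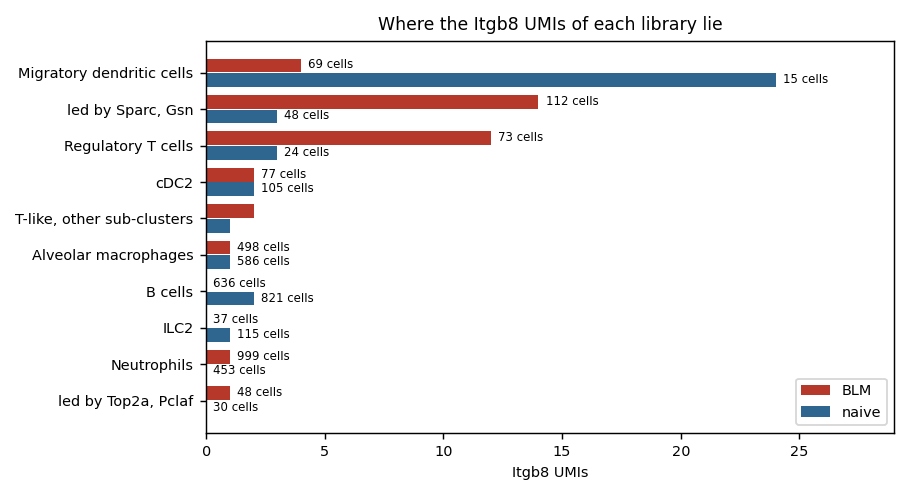
Number of Itgb8 UMIs in each cell class and library, out of 37 in each library. Migratory dendritic cells hold 24 of the naive UMIs, and the Treg-like sub-cluster (12) and the Sparc- and Gsn-led cluster (14) hold most of the BLM UMIs.

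Tgfbr1, the signalling receptor, was highest in alveolar macrophages, where both libraries held nearly the same level. Alveolar macrophages held 1338 UMIs in BLM and 1235 in naive cells (204 and 203 CPM), a log2 ratio of 0.01 (−0.10 to 0.12), and they stood above the next class beyond counting error in both libraries. The Birc5- and Pclaf-led cells followed at 152 and 144 CPM. In BLM these did not differ beyond counting error from C1q macrophages, at 145 CPM. Lymphocytes were low, at 26.8 and 22.4 CPM in T-like cells, 21.7 and 29.4 CPM in B cells, and 26.3 and 33.7 CPM in NK cells.

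Among the 11 classes, the interval of the Tgfbr1 ratio between libraries left out 0 in C1q macrophages and cDC1. In C1q macrophages it was at 145 CPM in BLM (666 UMIs in 464 cells) and 85.3 CPM in naive cells (60 UMIs in 113 cells), a log2 ratio of 0.77 (0.39 to 1.17). With alveolar, C1q and Birc5-led cells pooled the ratio was −0.07, so that difference depends on how the macrophages were split. In cDC1 it was at 17.0 CPM in BLM (8 cells with 1 UMI each) and 74.8 CPM in naive cells (42 UMIs in 29 cells, at most 5 in 1), a log2 ratio of −2.14 (−3.44 to −1.03). Alveolar macrophage markers in the same cDC1 clusters summed to 3965 CPM in BLM (8 of 12 detected, with Ear1, Marco, Krt79 and Fabp1 at 0) and 774 CPM in naive cells (12 of 12), beside 4526 and 4950 CPM of the cDC1 markers (8 of 8 in both). Their part in the cDC1 values was not tested.

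Tgfbr2 was lower after BLM in the macrophages, while in T-like, B and NK cells the interval of the ratio included 0. Alveolar macrophages held 1566 UMIs in BLM and 2021 in naive cells (239 and 332 CPM), a log2 ratio of −0.47 (−0.57 to −0.38). C1q macrophages were at 157 and 280 CPM (−0.83, −1.06 to −0.60) and the Birc5- and Pclaf-led cells at 155 and 246 CPM (−0.66, −0.93 to −0.39). Scaling by TMM, which centres on the bulk of genes, moved these to −0.27, −0.60 and −0.44, so the direction held in all 3.

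In T-like cells Tgfbr2 was at 327 CPM in both libraries (−0.16 to 0.16), and in B cells at 225 and 209 CPM (−0.12 to 0.32). NK cells were at 125 and 137 CPM and neutrophils at 93.2 and 102 CPM, both with intervals that included 0. Within the T cells, naive CD4 cells were highest at 548 and 543 CPM, followed in BLM by activated CD4 cells at 410 CPM (296 CPM in naive cells), while the Treg-like sub-cluster was at 118 and 157 CPM. Monocytes were lower after BLM with wide intervals: classical at 46.0 and 75.2 CPM (−0.71, −1.40 to −0.05) and nonclassical at 106 and 150 CPM (−0.50, −0.99 to −0.03). The classical value changed sign, to 0.26, when cells were assigned to classes one by one.

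Tgfbr2 was also high in the Sparc- and Gsn-led cells, at 575 CPM in BLM (175 UMIs in 112 cells) and 416 CPM in naive cells (53 UMIs in 48 cells), and in a few stromal-like cells, at 657 CPM (15 cells) and 359 CPM (13 cells). In the BLM cells of that cluster 75 of 112 had no Tgfbr2 UMI and 3 cells, with 35, 24 and 19, carried much of the sum, so its counting interval is too narrow. The cells with a UMI were also deeper, at a median of 3161 UMIs against 800. Cells of that cluster with no UMI of the mast cell and basophil genes Cpa3 and Gata2 held 174 of the 175 BLM UMIs and 41 of the 53 naive UMIs. Sparc and Gsn are genes of stromal cells, which the CD45 sort should remove, although 36 of the 104 BLM cells without Cpa3 and Gata2 had a UMI of Ptprc, which encodes CD45, and the cluster was left unnamed.

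Smad3 RNA was high in NK cells, ILC2 and some T cells and close to 0 in alveolar macrophages. NK cells stood at 108 CPM in BLM (33 UMIs) and 167 CPM in naive cells (99 UMIs), a log2 ratio of −0.62 (−1.24 to −0.04). The ILC2 were at 115 CPM (15 UMIs in 37 cells) and 124 CPM (33 UMIs in 115 cells). Within T-like cells (58.5 and 53.7 CPM) the gamma delta sub-cluster stood at 158 and 135 CPM and the cytotoxic one at 152 and 143 CPM. Neutrophils held 45.5 and 38.9 CPM. Alveolar macrophages had 15 UMIs in BLM and 5 in naive cells (2.29 and 0.821 CPM), with an interval of the ratio from −0.05 to 3.29, and C1q macrophages stood at 10.7 and 12.8 CPM. Nonclassical monocytes were past 2-fold higher in BLM, at 71.5 CPM (33 UMIs in 27 of 174 cells) against 35.1 CPM (38 UMIs in 31 of 229 cells), a log2 ratio of 1.03 (0.31 to 1.74).

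Smad2, the other receptor-activated SMAD, showed no such pattern. It lay between 15.4 and 46.7 CPM in the 11 classes in both libraries, led in BLM by the Birc5- and Pclaf-led cells (46.7 and 39.2 CPM), and none of its 11 ratios between libraries had an interval that left out 0. Alveolar macrophages, with the most Smad2 UMIs, were at 33.3 and 34.0 CPM (−0.31 to 0.25).

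Smad7, a feedback inhibitor that SMAD signalling is known to induce, followed the lymphocytes. T-like cells stood at 347 CPM in BLM (724 UMIs) and 290 CPM in naive cells (519 UMIs), a log2 ratio of 0.26 (0.09 to 0.42). NK cells came next at 240 and 199 CPM and B cells at 138 and 118 CPM, and the steps from T-like to NK cells and from NK to B cells were beyond counting error in both libraries. Alveolar macrophages were at 8.09 and 8.70 CPM.

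Within the T cells Smad7 was higher after BLM in 3 sub-clusters. CD8 T cells were at 426 and 270 CPM (0.66, 0.23 to 1.10), cells led by Fam241a and Cd8b1 at 478 and 300 CPM (0.67, 0.33 to 1.01) and gamma delta T cells at 192 and 103 CPM (0.89, 0.11 to 1.70). Naive CD4 cells were level, at 361 and 348 CPM. Neutrophils were also higher in BLM, at 84.2 CPM (113 UMIs) and 50.1 CPM (36 UMIs), a log2 ratio of 0.75 (0.20 to 1.33).

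Skil differed between the libraries in opposite directions in different classes. Neutrophils held 808 UMIs in BLM and 235 in naive cells (602 and 327 CPM), a log2 ratio of 0.88 (0.67 to 1.10), and a Skil UMI was seen in 49.0% and 33.8% of their cells (41.3% and 24.5% after thinning to 1000 UMIs). It was also higher after BLM in T-like cells (335 and 208 CPM, 0.69, 0.50 to 0.87), NK cells (391 and 258 CPM, 0.60), B cells (230 and 154 CPM, 0.57) and nonclassical monocytes (228 and 150 CPM, 0.60). Among T cells the activated CD4 sub-cluster differed most, at 420 CPM (168 UMIs) and 118 CPM (14 UMIs), a log2 ratio of 1.83 (1.04 to 2.73).

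Skil was lower after BLM in C1q macrophages (194 and 311 CPM, −0.69, −0.90 to −0.47), cDC1 (321 and 530 CPM, −0.73, −1.02 to −0.44) and cDC2 (295 and 468 CPM, −0.66, −0.96 to −0.37). The C1q value did not hold with the macrophages pooled (−0.01) or after thinning (−0.08). Alveolar macrophages were level at 149 and 146 CPM. Neutrophils were thus the highest in BLM among classes with at least 50 cells there, and the 37 BLM ILC2 stood beside them at 599 CPM (78 UMIs). In naive cells cDC1, ILC2 (482 CPM) and cDC2 were highest, and neighbours among these did not differ beyond counting error.

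Ski differed in fewer classes. It was lower after BLM in alveolar macrophages (150 and 196 CPM, −0.39, −0.51 to −0.26) and T-like cells (118 and 163 CPM, −0.47, −0.72 to −0.22). TMM scaling added 0.20 to the alveolar log2 ratio, in a class where the median of all genes was −0.21. In cDC2 Ski was at 31.9 CPM (15 UMIs in 12 of 77 cells) and 79.9 CPM (52 UMIs in 35 of 105 cells), a log2 ratio of −1.32 (−2.26 to −0.47). Neutrophils were higher, at 91.7 and 57.0 CPM (0.69, 0.16 to 1.23), and C1q macrophages level at 104 and 107 CPM.

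Tgfb1 itself was lower over all BLM cells (32.3 and 42.6 CPM, −0.40, −0.56 to −0.25). Alveolar macrophages and T-like cells had intervals that included 0 (38.5 and 41.0 CPM, and 26.4 and 23.5 CPM). The highest naive level was in ILC2, at 113 CPM, against 46.1 CPM in the BLM cells of that class, on 30 and 6 UMIs.

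**Figure D5:**
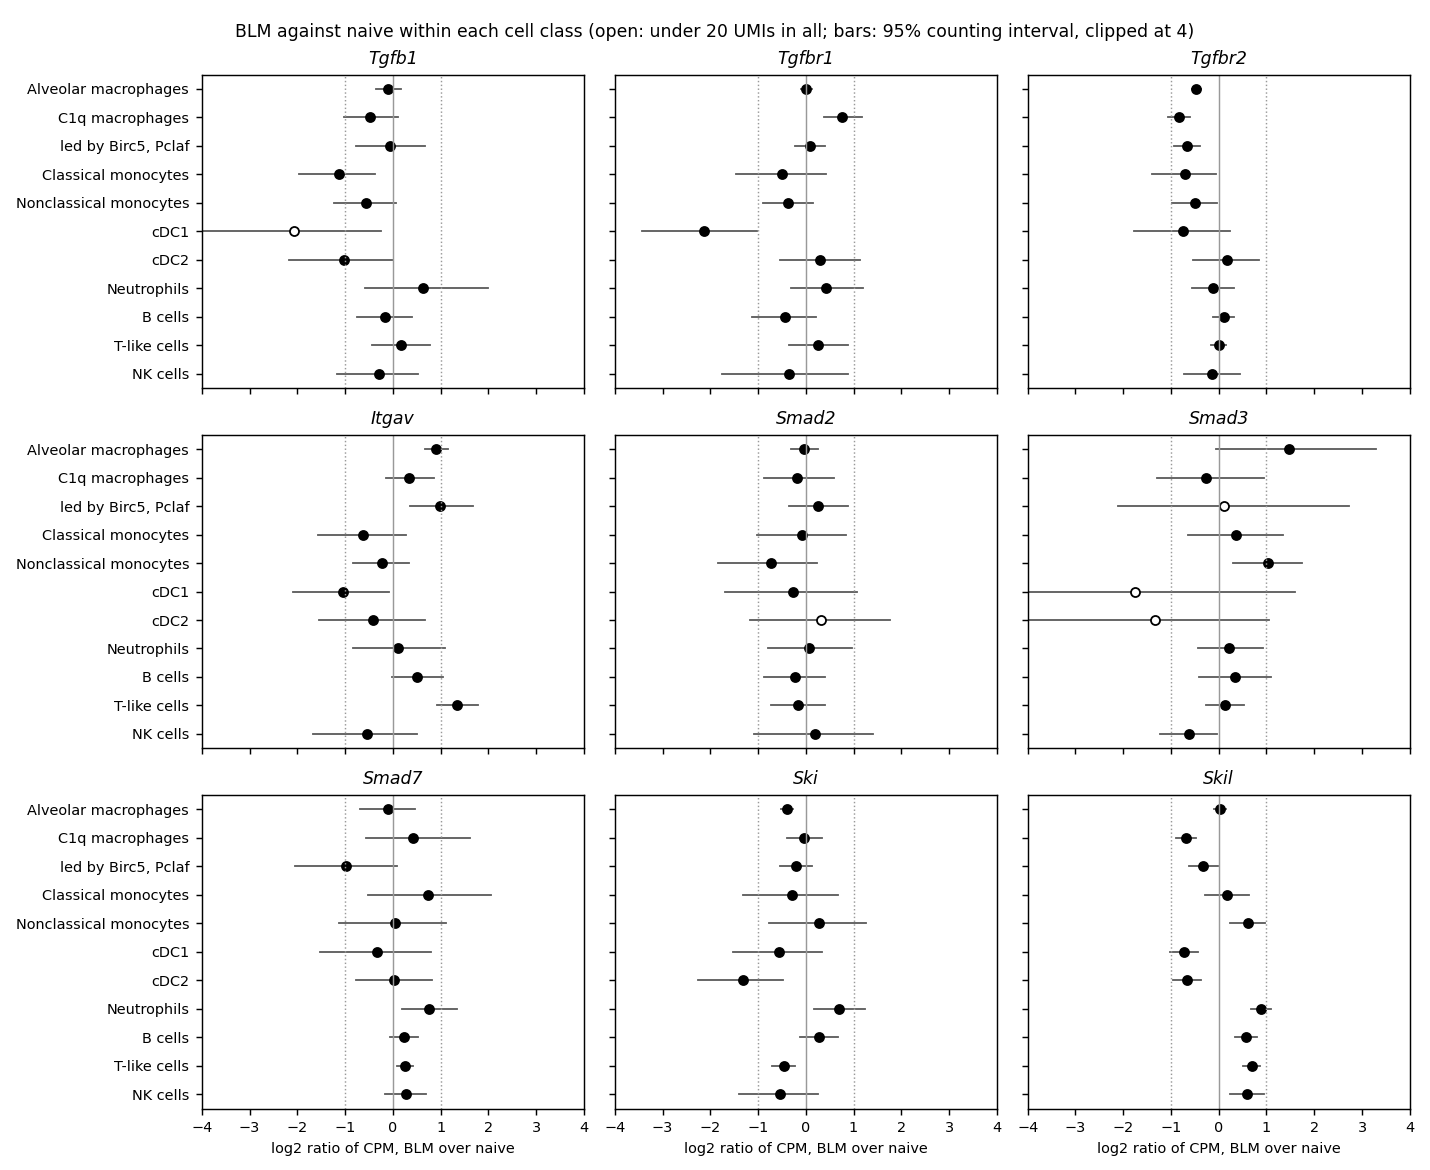
Log2 ratio of BLM over naive CPM for genes of the list other than Itgb8 in the 11 classes that had at least 50 cells per library, with 95% intervals of counting error. Itgav in T-like cells (1.35) and Tgfbr1 in cDC1 (−2.14) are the most extreme in each direction among intervals that leave out 0, and most intervals include 0 or stay within 2-fold.

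Over the 11 classes, 94 ratios of members had 20 or more UMIs over both sides. There were 3 past 2-fold higher in BLM (3.19%), where 4.36% of all gene ratios were, namely Smad3 in alveolar macrophages (6.24% of all genes in that class) and nonclassical monocytes (2.65%) and Itgav in T-like cells (2.54%). There were 5 past 2-fold lower (5.32%), where 7.47% of all gene ratios were, namely Tgfb1 in classical monocytes (4.96% of all genes in that class), Itgav and Tgfbr1 in cDC1 (8.74%), and Tgfb1 and Ski in cDC2 (7.82%). Both shares rest on few ratios and lay near those of all genes. The difference was not tested. With TMM scaling the split was 7 higher and 5 lower, because it added 0.20 to the log2 ratios of alveolar macrophages, 0.24 in C1q macrophages, 0.21 in neutrophils and 0.22 in the Birc5-led cells. The 4 ratios that then passed were Itgav in alveolar macrophages (1.12) and Birc5-led cells (1.21), Tgfbr1 in C1q macrophages (1.004) and Skil in neutrophils (1.09).

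The median log2 ratio of the members can be read beside that of all genes. It was −0.03 for members and −0.21 for all genes in alveolar macrophages, −0.18 and −0.08 in C1q macrophages, and 0.23 and −0.07 in B cells. T-like cells gave 0.17 and −0.09, and neutrophils 0.42 and −0.11. The lowest was in cDC1, at −0.73 against 0.03, which is the ratio of Skil. In cDC2 the medians were −0.41 and 0.01, where that of the members is the ratio of Itgav (−1.55 to 0.67). The member median was also lower in classical monocytes (−0.29 and −0.05), NK cells (−0.29 and −0.12) and nonclassical monocytes (−0.23 and −0.04). These medians rest on 7 tested members in cDC1 and cDC2, 8 in the Birc5- and Pclaf-led cells and 9 in the other classes. The Birc5- and Pclaf-led cells gave −0.13 and −0.15.

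Other genes of the pathway were read from a list of 54, counting those past 2-fold with an interval that left out 0. In alveolar macrophages 10 of 42 tested were higher in BLM (5.91% of all genes were) and 6 were lower (9.58%). The higher ones included Mmp14, a membrane protease that can release latent TGF-beta, with 373 UMIs in BLM and 6 in naive cells (57.0 and 0.985 CPM, 5.85, 4.72 to 7.31). Thbs1, which encodes the ligand activator thrombospondin, was at 265 and 35.1 CPM (2.91), and Ltbp3, a latent TGF-beta binding protein, at 10.8 and 0.657 CPM (4.05). The lower ones included Jun (64.6 and 247 CPM, −1.94), Bmpr1a (2.75 and 12.0 CPM, −2.12), a receptor for the related bone morphogenetic proteins, and Klf10 (47.8 and 136 CPM, −1.51), a gene known to respond to TGF-beta.

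C1q macrophages shared Mmp14 (110 and 18.5 CPM, 2.57) as one of 2 higher genes of 44 tested (4.58% of all genes), beside Ltbp3 (1.01). There 8 were lower (9.06%), among them Id3 (80.8 and 381 CPM, −2.24) and Tgfb2 (−2.50). The Birc5- and Pclaf-led cells had 5 of 37 higher (4.31%), again with Mmp14 (5.57) and Thbs1 (2.41), and 3 lower (9.28%), again with Jun (−2.13) and Klf10 (−1.67). So Mmp14 was higher in all 3 macrophage-rich groups, with its highest BLM level in C1q macrophages. Markers of C1q macrophages were also higher in the BLM cells of the other groups, as given above. Their part in the Mmp14 values was not tested.

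In cDC1 0 of 28 were higher (5.36% of all genes) and 8 were lower (7.2%), led by Jun (−2.58), Klf10 (−2.99) and the protease Furin (−1.62). In cDC2 3 of 32 were higher (4.34%), namely Itgae (99.9 and 10.8 CPM, 3.22), Thbs1 (1.89) and Mmp14 (3.05), and 5 lower (6.13%). In the same cDC2 cells neutrophil markers summed to 2453 CPM in BLM and 714 CPM in naive cells (8 of 8 detected in both), and B cell markers to 104 and 309 CPM, and their part in the cDC2 values of the pathway and of Ski, Skil and Tgfb1 was not tested. B cells had 3 of 34 higher (1.16%), Pmepa1 (98.0 and 41.2 CPM, 1.25), Id3 (1.09) and Tgif2 (1.07), and 1 lower (3.71%). T-like cells had 0 of 37 higher (2.12%) and 1 lower (3.03%). Neutrophils had 0 of 29 higher (2.79%) and 1 lower (5.8%), and nonclassical monocytes 1 of 34 higher (2.09%), Id2 (1.002), and 1 lower (2.51%). Classical monocytes had 2 of 28 higher (3.15%), Id2 (1.46) and Furin (1.30), and 1 lower (3.53%), Smurf2 (−1.20). NK cells had 0 of 25 in either direction (1.53% of all genes higher and 3.22% lower).

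In Foxp3-positive BLM cells against the other T-like cells, 4 of 35 were higher (7.7% of all genes) and 4 lower (5.36%). Id2, a transcriptional inhibitor, was at 1029 and 221 CPM (2.22, 1.98 to 2.45), and Itgae, the CD103 chain that TGF-beta is known to induce on T cells, at 219 and 57.2 CPM (1.94, 1.42 to 2.43). Nrros, which tethers latent TGF-beta on myeloid cells, was at 85.8 and 24.8 CPM (1.79) on 20 and 46 UMIs. The lower genes included Jun (34.3 and 186 CPM, −2.44) and Smad4, the common partner of SMAD2 and SMAD3 (47.2 and 179 CPM, −1.92). The co-receptor Tgfbr3, also among them, had 0 UMIs against 50 (27.0 CPM). Its floor in Foxp3-positive cells is 12.9 CPM, and its interval ends at −0.72.

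In the naive library 2 of 36 were higher (4.51%) and 1 lower (1.55%). Lrrc32, which encodes GARP, the Treg surface protein that holds latent TGF-beta, had 20 UMIs in Foxp3-positive cells and 3 in the others (294 and 1.75 CPM, 7.40, 5.64 to 9.79). Between libraries, 3 of 17 were higher in BLM Foxp3-positive cells (5.91% of all genes) and 3 lower (5.95%). The higher ones were Itgae at 219 and 44.1 CPM (2.31, 0.68 to 4.63), Pmepa1 at 287 and 58.8 CPM (2.29, 0.87 to 4.21) and Id2 at 1029 and 309 CPM (1.74, 1.09 to 2.46). Their naive values rested on few UMIs, with 51 in BLM and 3 in naive cells for Itgae, 67 and 4 for Pmepa1, and 240 and 21 for Id2. The lower ones were Jun at 34.3 and 206 CPM (−2.58, −4.04 to −1.23), Lrrc32 at 64.3 and 294 CPM (−2.19, −3.26 to −1.15) and Smad4 at 47.2 and 206 CPM (−2.13, −3.41 to −0.88), each on 8 to 20 UMIs per library.

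Likeness between genes was measured as Pearson's r of log2(CPM + 10) over 34 profiles of a class in a library, which share cells, depth and reference, and is given as a description with no test. Among 10730 genes, Itgav was most like Endod1 (0.67), Tnfrsf8 (0.67) and Foxp3 (0.66). Tgfbr1 was most like Lipa (0.89), Mfsd12 (0.88) and Gdf15 (0.87). Tgfbr2 was most like Ski (0.79), Nudt6 (0.77) and Akirin2 (0.77), and Ski most like Cd164 (0.83), Tgfbr2 (0.79) and Ppp1cc (0.75). The T cell genes Satb1 (0.95), Vps37b (0.95) and Gimap9 (0.94) were closest to Smad7, and Ppp1r12a (0.91), Rock1 (0.85) and Nr3c1 (0.84) to Smad3. Smad2 had no close match, with Ahsa1 (0.65), Nnt (0.64) and Unc50 (0.61) at the top, and Skil was nearest to Jak2 (0.72), Dot1l (0.68) and Nr4a3 (0.67). Itgb8 had too few UMIs. Among the members, Tgfbr1 and Smad7 were the most opposed (−0.73), and Itgav and Itgb8 stood at 0.55.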

How the data were processed

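The deposited tables held UMI counts per cell and gene, which the authors made with the BD Rhapsody pipeline, version 1.8, on GRCm38 with GENCODE vM19, after recursive substitution error correction. They were not normalised, and genes that a table lacked were set to 0. Cells needed at least 200 genes and no more than 15% of UMIs from mitochondria, and the 3% with the highest Scrublet score (scanpy 1.11.5) were left out (135 BLM, 117 naive). Seurat 5.3.0 (R 4.3.3) integrated and clustered the libraries (2000 variable genes, 30 dimensions, resolution 0.5). T-like clusters, those where at least 50% of cells had a Cd3e UMI, were integrated again with 20 dimensions. A cluster was named from fixed marker lists by its highest class score, unless several markers of another class were among its leading genes. It stayed unnamed with under 3 markers or a score under 0.3, and, where the score decided, with a gap under 0.1. Clusters led by cell-cycle genes, or with a single leading marker of a class other than the top-scoring one, also stayed unnamed. The cDC2 cluster was thus named by its leading genes (score 2.49 against 2.56). The Sparc- and Gsn-led cluster scored highest for basophils and mast cells (3.85) but stayed unnamed.

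Counts were summed per class and library over 4391 BLM and 3808 naive cells. Levels have exact Poisson 95% intervals, ratios exact conditional Clopper-Pearson intervals (scipy 1.17.1), and a count of 0 a floor of 3. Ratios were called past 2-fold with 20 or more UMIs over both sides. No test between conditions was run, with 1 library per group. Text names followed a rule: all 10 members, pathway genes past 2-fold ranked by the end of the interval nearer 0, and the 3 genes most like each member. Genes named beyond those were class markers. A pathway gene is counted but not reported here by name. The members and lists were chosen with earlier results of these data known. Alternatives covered doublets, filters, resolution, integration, gating cell by cell, scaling (edgeR 4.0.16 TMM), thinning and the comparison cells. The ratio script was tested on simulated independent counts, which cover counting error only and no spread between cells or mice.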

Additional observations from a re-analysis of the deposited data

Results flagged for a closer look

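For 5 members the BLM and naive libraries differed in opposite directions in different classes, each with an interval that left out 0. The difference between classes was not tested, and 1 library stood on each side. Tgfbr1 was higher in BLM C1q macrophages (log2 ratio 0.77) and lower in BLM cDC1 (−2.14). Itgav was higher in alveolar macrophages (0.91), T-like cells (1.35) and the Birc5- and Pclaf-led cells (0.99), and lower in cDC1 (−1.04). Smad3 was higher in nonclassical monocytes (1.03) and lower in NK cells (−0.62). Ski was higher in neutrophils (0.69) and lower in alveolar macrophages (−0.39), T-like cells (−0.47) and cDC2 (−1.32). Skil was higher in B cells (0.57), NK cells (0.60), neutrophils (0.88), nonclassical monocytes (0.60) and T-like cells (0.69), and lower in C1q macrophages (−0.69), cDC1 (−0.73), cDC2 (−0.66) and the Birc5- and Pclaf-led cells (−0.33). Some of these values did not hold under other settings. With the macrophages pooled, Tgfbr1 came to −0.07 and Skil to −0.01, and Skil in the Birc5- and Pclaf-led cells changed sign when thinned.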

How the results depend on the processing

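No paired analysis was possible because each group had 1 library. Only 37 ratios of BLM over naive, those past the minimum of UMIs with an interval that left out 0, were recomputed. Of the 311 values obtained, 285 moved by less than their counting interval, 23 moved further and 3 changed sign. The sign changed for Tgfbr1 in C1q macrophages with the macrophages pooled (−0.0701) and Tgfbr2 in classical monocytes with cells gated one by one (0.26). It also changed for Skil in the Birc5- and Pclaf-led cells thinned to 1000 UMIs (0.46). Stability differed by setting. All values stayed within the interval with doublets kept (35 of 35) and at resolution 1.0 (37 of 37). Fewer did so with cells gated one by one (22 of 30), thinned (25 of 35) or with the macrophages pooled (3 of 6). Of 119 ratios of Foxp3-positive over other BLM T-like cells, 109 stayed within their counting interval. Itgav (3.55) came to 2.48 gated one by one, 2.70 against other cells with a Cd4 UMI and 2.22 against activated CD4 cells. Itgb8 (2.99) came to 5.54 by sub-cluster and 0.88 against cells with a Cd4 UMI. Smad7 (−0.99) came to −1.73 thinned. Skil (0.79) came to 0.31 gated one by one, 1.11 thinned, 0.47 against cells with a Cd4 UMI and 0.33 against activated CD4 cells. The 3 member ratios past 2-fold higher became 7 with TMM and 5 with no minimum of UMIs. The 5 lower became 3 with doublets kept, with a mitochondrial limit of 10% and with a minimum of 50 UMIs, 8 thinned and 9 with no minimum. The causes were not tested. Pooling the macrophages and the activated CD4 comparison were chosen after seeing the data.

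Gating each cell on its own gave the same class for 91.6% of 7496 cells named both ways. Clustering without integration left the alveolar class with no BLM cells and hence no ratio, and the match of macrophages across libraries rests on integration. Counts limit Itgb8 in every class and all members in naive Foxp3-positive cells (22 cells).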
